A study of Mus musculus with 6 samples.

Results

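Complement is a set of soluble proteins that mark surfaces for uptake, recruit leukocytes and lyse membranes. The genes C1qa, C1qb, C1qc, C3, C4b, Cfb and Serping1 were chosen by name, as members of this system with a column in each of the 6 mouse skin tables, and make up 7 of the 16158 gene columns. They were followed across macrophage-like, fibroblast-like, keratinocyte-like and endothelial-like cells in single-cell RNA libraries from 3 groups of 2 mice. All mice were of the NINJA strain, in which skin can be made to express an antigen, were 6 to 12 weeks old and had the sequenced skin area treated with 4-OH-Tam. The NO_AG mice are the antigen-off group, the AG mice had the antigen switched on, and the AG_CPI mice had the antigen on together with the agent that the labels abbreviate as CPI. Before sequencing, the submitters checked every mouse for skin disease and for P14 CD8 T cells, T cells with a fixed antigen receptor, so that the groups were known to differ in phenotype. The labels used here do not give the promoter behind antigen expression, the sex of the mice or their litters.

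In the classical pathway the C1q molecule, assembled from the A, B and C chains that C1qa, C1qb and C1qc encode, binds antibody or damaged cells. It then acts through the proteases C1r and C1s to cleave C4 and C2. C3 is the protein on which all pathways meet, and factor B, the product of Cfb, forms the C3-cleaving enzyme of the alternative pathway. Serping1 encodes the C1 inhibitor, which blocks C1r and C1s. Tissue macrophages are a known source of C1q, and fibroblasts and endothelium are known to make C1 inhibitor.

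The genes lie on 3 chromosomes in RefSeq's GRCm38.p6 annotation, a patch of the mm10 build that the submitters' processing notes name. C1qb (chr4:136880126-136886200), C1qc (chr4:136889801-136892936) and C1qa (chr4:136895916-136898844) are neighbours within 18.7 kb. C4b (chr17:34728139-34743902) and Cfb (chr17:34856374-34862514) share a region of chromosome 17, C3 (chr17:57203967-57228136) lies elsewhere on it, and Serping1 is at chr2:84765360-84775444. A near-identical copy of C4b, C4a (chr17:34809092-34823460, annotated as a transcribed pseudogene), has no column in the files. Reads of C4a and C4b could have been counted together, so C4b values are uncertain to that extent.

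RefSeq's table of promoters for GRCm38.p6 held entries for 3 of the 7 genes, which are shown because C1qb and C1qc were both abundant in macrophage-like cells and C3 had the largest rise of the 7 there. Each sequence is the 250 bases before the transcript start of its promoter entry, on the minus strand of the genome, read 5′ to 3′ along the gene. For C1qc that start lies inside the gene span given above, which ends at 136892936, so its positions count from the entry's start. Capitals mark matches to GAGGAA, an ETS-family core preferred by PU.1, to TTCNNNGAA, a STAT-type motif, or to TTGCNNAA, a C/EBP-type motif, searched on both strands.
C1qb, chr4:136886201-136886450: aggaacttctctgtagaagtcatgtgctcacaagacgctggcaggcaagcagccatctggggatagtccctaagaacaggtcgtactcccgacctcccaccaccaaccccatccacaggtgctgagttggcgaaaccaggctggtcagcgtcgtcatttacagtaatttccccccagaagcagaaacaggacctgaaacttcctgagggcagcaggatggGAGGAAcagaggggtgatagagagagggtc
C1qc, chr4:136892915-136893164: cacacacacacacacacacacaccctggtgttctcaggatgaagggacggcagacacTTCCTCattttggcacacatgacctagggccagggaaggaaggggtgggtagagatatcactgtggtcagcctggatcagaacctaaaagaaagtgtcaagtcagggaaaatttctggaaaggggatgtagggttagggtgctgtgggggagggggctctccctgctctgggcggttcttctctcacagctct
C3, chr17:57228137-57228386: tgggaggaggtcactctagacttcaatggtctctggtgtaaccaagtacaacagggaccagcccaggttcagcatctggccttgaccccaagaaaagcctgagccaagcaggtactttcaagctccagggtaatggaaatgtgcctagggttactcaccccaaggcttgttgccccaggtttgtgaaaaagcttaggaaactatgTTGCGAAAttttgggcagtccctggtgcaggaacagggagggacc
C1qb held GAGGAA at 30 to 25 bases before the start, and C1qc held it on the opposite strand, read as TTCCTC, at 193 to 188 bases. C3 held TTGCGAAA at 45 to 38 bases, and none of the 3 held TTCNNNGAA. Of the 32851 promoters in the table, 23.2% held GAGGAA, 7.02% TTCNNNGAA and 9.56% TTGCNNAA in windows of this length, and no matches in the 3 sequences overlapped.

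The deposited values cover 21178 cells, of which 20398 were kept, and 11402 fell in the 4 classes. Total UMIs (unique molecular identifiers, each 1 captured RNA molecule) per library ran from 5650384 to 23845530, with medians of 2416.5 to 4574 per cell. Clusters were made without any complement gene and named from marker genes. The labelled tissue held cells with the markers of all 4 classes in every mouse. Libraries shared 5 to 35 cell barcodes per pair, at most 0.856% of the smaller library. The library AG_CPI_1 stood apart: the Y-linked gene Ddx3y was detected in 16.5% of its cells other than T cells and Xist in 2.57% of them, while Xist was detected in 56.9% of its T cells, and Ddx3y had no UMI in the other 5 libraries. Differences of the 7 genes against NO_AG are given with and without that library.

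Levels below are means over the cells of a mouse and class, as UMIs per 10000 UMIs of a cell, in the order of replicates 1 and 2. Tests used limma on log2(mean + 0.1) after scaling by trimmed means, with Benjamini-Hochberg adjustment over all genes tested in the class and a threshold of 0.05. Each group has 2 mice, which the labels call biological replicates. Comparisons against NO_AG share the NO_AG mice, and those with AG share the AG mice.

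Of the 4 classes, macrophage-like cells had the highest level of all 3 C1q chains. C1qb, the B chain, was at 31.8 and 50.03 in NO_AG macrophage-like cells, 66.7 and 46.0 in AG, with 56.4 and 64.2 in AG_CPI. C1qa, the A chain, was at 26.4 and 32.1 in NO_AG, 52.8 and 30.2 in AG, with 42.6 and 50.8 in AG_CPI. C1qc, the C chain, was at 24.0 and 27.9, 38.1 and 22.4, and 32.8 and 36.6 in the same order. The high mouse was AG_1 for all 3 chains, and on these levels AG_2 lay between the NO_AG mice for C1qa and C1qb and below both for C1qc. The scaling used in the fit divided levels by 1.25 and 1.20 in NO_AG and by 0.882 and 0.936 in AG. After it, both AG mice lay above both NO_AG mice for all 3 chains. Groups did not overlap for 53.3% of all genes on that scale. Each chain's share of C1q UMIs ran over the 6 mice from 28.4% to 34.2% for C1qa, from 39.4% to 47.8% for C1qb and from 22.8% to 28.6% for C1qc.

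No C1q chain passed the test in macrophage-like cells in the fit described above. In AG against NO_AG the log2 difference was 0.88 for C1qa (adjusted p = 0.1), 0.90 for C1qb (adjusted p = 0.0901) and 0.60 for C1qc (adjusted p = 0.210) by limma, with a median of 0.42 over all genes tested. In AG_CPI against NO_AG it was 1.11 for C1qa, 1.03 for C1qb and 0.85 for C1qc by limma (adjusted p = 0.0513, 0.0614 and 0.0923). Without AG_CPI replicate 1 these were 1.23, 1.11 and 0.92 (limma adjusted p = 0.25, 0.292 and 0.359). With the deposited scaling alone no chain passed either, while some alternatives changed this, leaving out a NO_AG mouse among them. With cells thinned to 1500 UMIs, with summed UMIs or with the T-like level subtracted, C1qa and C1qb passed in AG against NO_AG and all 3 chains in AG_CPI against NO_AG. After thinning, the C1qa difference was 1.23 in AG (limma adjusted p = 0.034) and 1.44 in AG_CPI (limma adjusted p = 0.0212). Between AG_CPI and AG the C1qa difference was 0.23, with a 95% interval of -0.48 to 0.94, so a difference of this size in either direction was not resolved with 2 mice per group. Macrophage-like cells themselves were 0.484% and 0.431% of the NO_AG libraries (23 and 17 cells), 4.71% and 12.4% of the AG libraries and 13.6% and 9.85% of the AG_CPI libraries. After each cell was thinned to 1500 UMIs, 84.3% to 96.2% of macrophage-like cells had a C1q UMI, against 0.488% to 2.82% of T-like cells, which are not known to make C1q. Dendritic or Langerhans-like cells, which are not among the 4 classes, lay between, at 24.6% and 24.6% in NO_AG and 33.3% in AG_1, except in AG_2, where 85.7% of 28 cells had one.

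**Figure D1:**
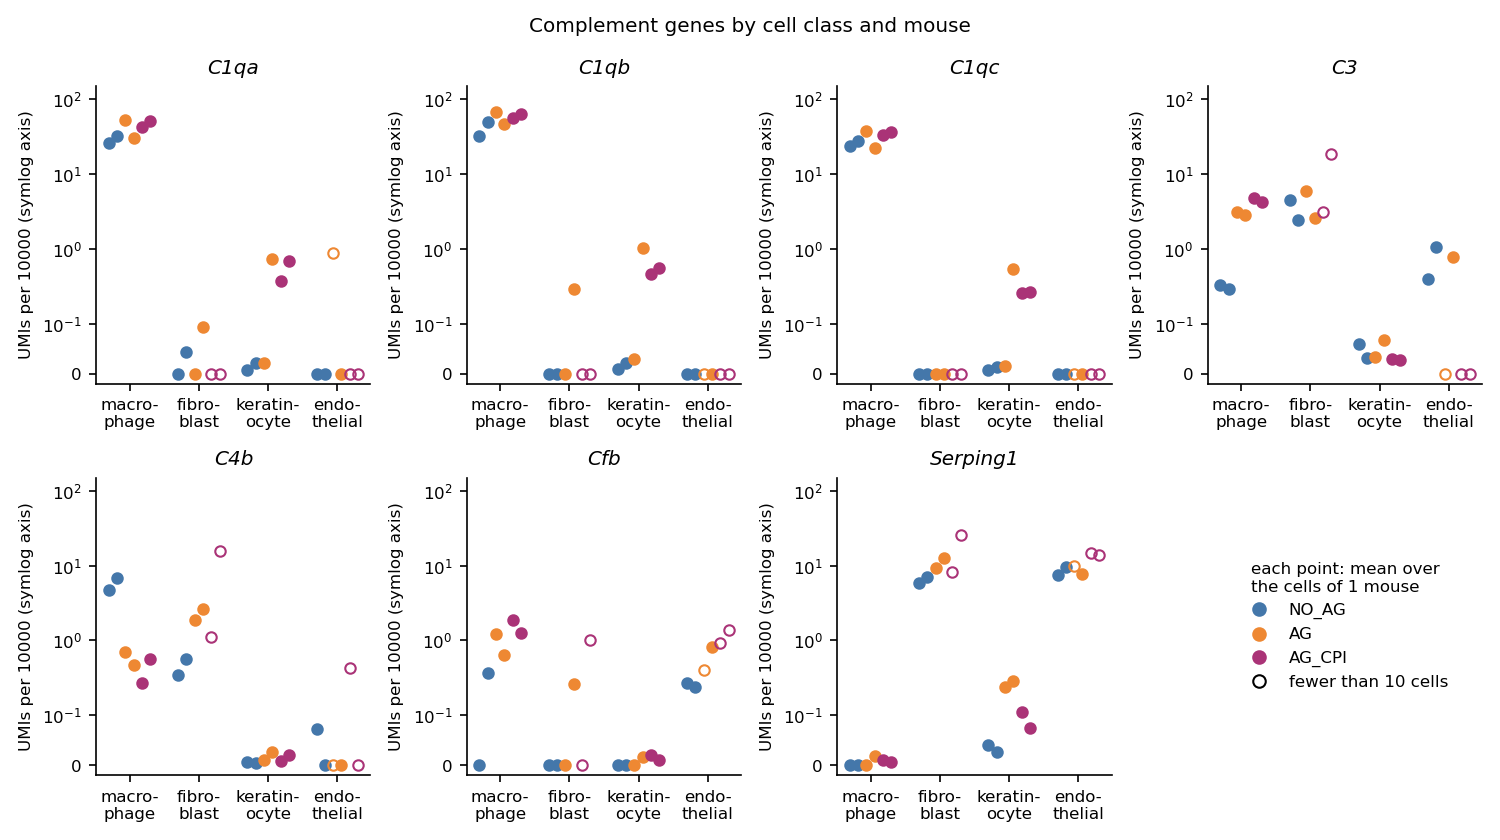
Level of each gene (y axis, UMIs per 10000, linear near 0 and logarithmic above 0.1) in 4 cell classes (x axis), 1 point per mouse, coloured by group and hollow below 10 cells. C1q chains stand high in macrophage-like cells and Serping1 in fibroblast-like and endothelial-like cells, while C4b in macrophage-like cells is lower in all 4 AG and AG_CPI mice than in the 2 NO_AG mice.

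C3, the protein that all complement pathways cleave, was higher in macrophage-like cells of every mouse with antigen on. Its level was 0.328 and 0.287 in NO_AG, from 2 UMIs in each mouse, 3.08 and 2.80 in AG (308 and 624 UMIs) and 4.75 and 4.18 in AG_CPI (608 and 518 UMIs). The 3 groups did not overlap, and AG_CPI was the highest. On the scale of the fit, groups did not overlap for 53.3% of all genes in AG against NO_AG, 56.1% in AG_CPI against NO_AG and 35.9% in AG_CPI against AG. The log2 difference was 3.25 in AG against NO_AG (SE 0.23, 95% interval 2.71 to 3.78, limma adjusted p = 0.00448). It was 3.85 in AG_CPI against NO_AG (limma adjusted p = 0.00143). AG_CPI exceeded AG by 0.60 (95% interval 0.06 to 1.13), which did not pass the adjusted test (limma adjusted p = 1.00), and by 0.49 without AG_CPI replicate 1.

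The NO_AG side of C3 rests on 4 UMIs, fewer than the 10 in 2 mice that the test required, so C3 entered the test through the mice where it was high. The ratio of summed UMIs was also computed with an exact 95% counting interval. It was 9.17 for AG over NO_AG (3.57 to 33.7) and 14.2 for AG_CPI over NO_AG (5.55 to 52.4), and these intervals cover counting error only. With only the 2 groups compared in the fit, C3 in AG against NO_AG had a limma adjusted p of 0.0527. Leaving out AG replicate 1 or AG replicate 2 gave 0.0809 and 0.0892 at differences of 3.14 and 3.36, and leaving out AG_CPI replicate 1 or AG_CPI replicate 2 gave 0.142 and 0.0773 at 3.74 and 3.95.

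C4b, the C4 protein that C1s cleaves, moved the other way in macrophage-like cells. It was at 4.66 and 6.85 in NO_AG (30 and 34 UMIs), 0.706 and 0.462 in AG (37 and 77 UMIs) and 0.268 and 0.571 in AG_CPI (21 and 44 UMIs). Both NO_AG mice lay above all 4 others. The log2 difference was -2.69 in AG against NO_AG (SE 0.40, limma adjusted p = 0.0142) and -3.13 in AG_CPI against NO_AG (limma adjusted p = 0.00852). AG_CPI against AG gave -0.44 (limma adjusted p = 1.00), and -0.0066 without AG_CPI replicate 1.

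As for C3, the fit of the 2 groups alone moved C4b in AG against NO_AG to a limma adjusted p of 0.0527. Leaving out AG replicate 1 or 2 gave 0.12 and 0.126 at -3.00 and -2.39, and leaving out AG_CPI replicate 1 or AG_CPI replicate 2 gave 0.142 and 0.112 at -2.70 and -3.56.

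Cfb, factor B of the alternative pathway, was at 0 and 0.370 in NO_AG macrophage-like cells (0 and 3 UMIs), 1.20 and 0.639 in AG, with 1.84 and 1.25 in AG_CPI. The NO_AG mice were the 2 lowest of the 6. Cfb met the minimum of 10 UMIs only through the antigen-on mice. The log2 difference was 3.14 in AG_CPI against NO_AG (limma adjusted p = 0.0277) and 2.40 in AG against NO_AG (limma adjusted p = 0.0584). As a ratio of summed UMIs, AG_CPI was 7.24 times NO_AG (exact 95% counting interval 2.46 to 35.2). The Cfb call in AG_CPI was lost with the deposited scaling alone (2.90, limma adjusted p = 0.0594), in the fit of the 2 groups alone (3.14, 0.0763) and without the filter on low values (3.14, 0.0742). It was also lost without AG_CPI replicate 1 (2.86, 0.238) and without AG_CPI replicate 2 (3.42, 0.165), so the size of the difference changed less than its p.

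Of the 6 genes tested in macrophage-like cells, 1 was called higher and 1 lower in AG against NO_AG, beside 14.0% of all 6649 genes tested, 12.6% higher and 1.38% lower. In AG_CPI against NO_AG, 2 were called higher and 1 lower, beside 15% of all genes, 13.5% higher and 1.47% lower. No gene of the 6649 was called in AG_CPI against AG (0%), where 96 had an unadjusted p under 0.05. The scaling moved these shares: with the deposited scaling alone the median of all genes fell from 0.42 to 0.14 in AG against NO_AG, and the split of calls went from 840 higher and 92 lower to 328 and 113. In AG_CPI against NO_AG the median went from 0.44 to 0.13 and the split from 899 and 98 to 437 and 154. Under that scaling C3 stayed higher (2.90 and 3.49) and C4b lower (-3.10 and -3.53), all 4 with a limma adjusted p under the threshold. Serping1 was too low to be tested in this class, with 6 UMIs in 1196 cells.

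The macrophage-like class consisted of 2 clusters whose proportions differed between groups. A cluster led by Retnla, F13a1 and Folr2 held 56.5% and 76.5% of macrophage-like cells in NO_AG (13 cells in each mouse), 6.29% and 2.53% in AG, with 1.30% and 3.76% in AG_CPI. A cluster led by Mmp12, Ms4a7 and Ctss held the rest. Of all C4b UMIs in the class, 66.3% came from the first cluster, which held 5.10% of the cells. The second cluster held 99.5% of C3 UMIs and 99.6% of Cfb UMIs.

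Within the Retnla cluster, C4b was at 8.24 and 8.96 in NO_AG, 9.61 and 11.9 in AG, with 5.94 and 11.4 in AG_CPI, the last 2 from 3 and 8 cells. The AG mice thus lay above the NO_AG mice within this cluster. Its C4b log2 difference, AG against NO_AG, was 0.36 (limma adjusted p = 0.963), against -2.69 over the whole class. C3 in that cluster was at 0.580 and 0.375 in NO_AG and 0.378 and 0.499 in AG, from 1 to 3 UMIs per mouse.

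Within the Mmp12 cluster, C4b was at 0.109 and 0.166 in AG, with 0.194 and 0.146 in AG_CPI. The 10 cells of NO_AG_1 in it had no C4b UMI and no C3 UMI, where 3 UMIs would have been 0.811 per 10000. NO_AG_2 had 4 cells in it. Cfb in the Mmp12 cluster was at 0 and 0.976 in NO_AG, the second from 2 UMIs, 1.28 and 0.650 in AG, with 1.87 and 1.29 in AG_CPI, so that NO_AG_2 lay above AG_2. C3 there was at 3.27 and 2.86 in AG, with 4.78 and 4.34 in AG_CPI. AG and NO_AG could not be tested within the Mmp12 cluster because NO_AG_2 had fewer than 10 cells, so the share of the class difference that goes with cluster proportions was not tested.

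Other measures also moved with the groups. Macrophage markers summed to 128 and 199 per 10000 in NO_AG, 87.1 and 80.8 in AG, with 133 and 107 in AG_CPI. The 13 dendritic or Langerhans markers summed to 32.6 and 24.5 in NO_AG macrophage-like cells, 5.93 and 1.99 in AG, with 1.5 and 1.86 in AG_CPI; 7 of the 13 were at 0 in each NO_AG mouse. Fibroblast markers, whose cells also express C3 and C4b, summed to 0.355 and 0.520 in NO_AG and to between 0.0293 and 0.141 in the other 4 mice, with 9 of 11 at 0 in each NO_AG mouse. The median macrophage-like cell had 2304 and 2757 UMIs in NO_AG, 6528 and 3363 in AG, with 5533 and 5817 in AG_CPI. The part of these measures in the results was not tested.

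**Figure D2:**
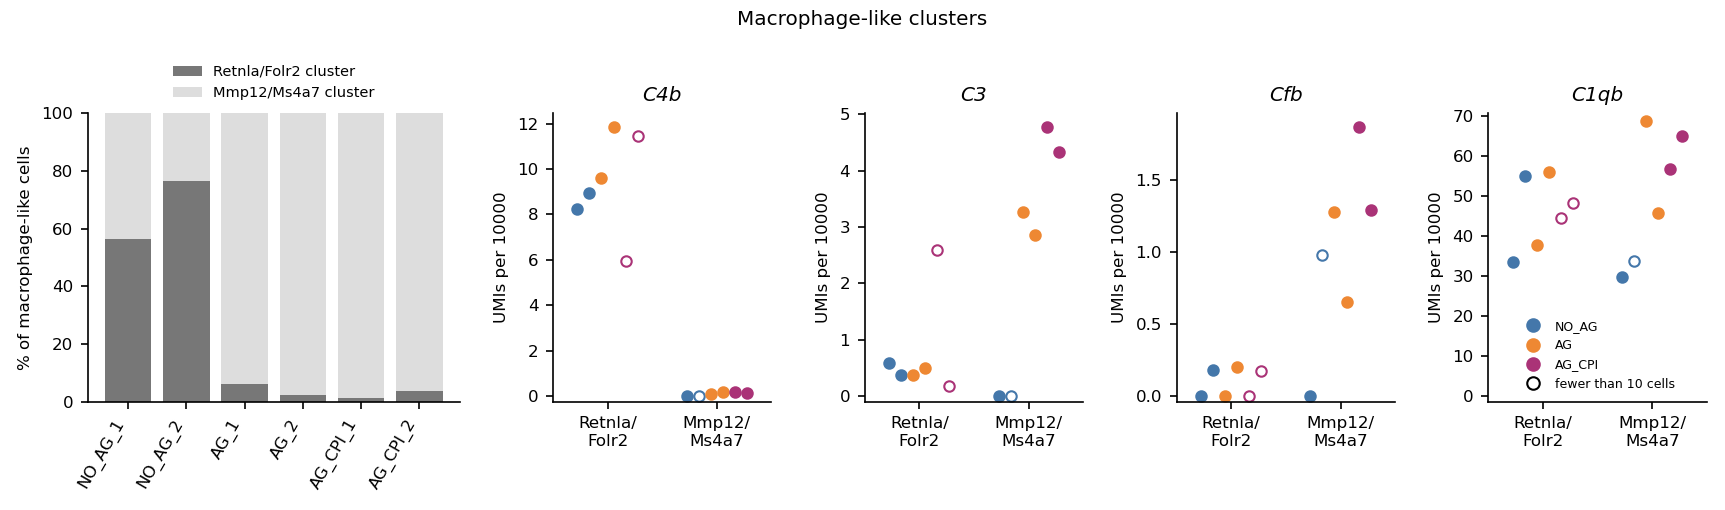
Left, share of macrophage-like cells in each of 2 clusters (y axis, percent) for each mouse (x axis); right, level of 4 genes (y axis, UMIs per 10000) in each cluster, 1 point per mouse, hollow below 10 cells. C4b lies between 5.94 and 11.9 in the Retnla cluster and below 0.2 in the Mmp12 cluster, in every mouse.

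In fibroblast-like cells, numbering 71 and 45 in NO_AG, 51 and 25 in AG and only 8 and 5 in AG_CPI, C4b rose in AG. It was at 0.344 and 0.571 in NO_AG (8 and 11 UMIs) and 1.85 and 2.65 in AG (31 and 26 UMIs). Both AG mice lay above both NO_AG mice. The 8 UMIs in NO_AG_1 were below the minimum count for the test, while the 11 in NO_AG_2 met it. C4b therefore passed the filter only with the AG mice, where it was high. The log2 difference was 2.10 (SE 0.37, 95% interval 1.32 to 2.87, limma adjusted p = 0.00852). The call was lost without NO_AG replicate 1 (limma adjusted p = 0.0629), with a stricter cell filter (0.0568), after thinning (0.545) and with summed UMIs (0.0978), at differences of 1.83 to 2.25.

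C3 did not follow C4b there. It was at 4.50 and 2.45 in NO_AG and 5.99 and 2.55 in AG, so the groups overlapped, with a log2 difference of 0.24 (95% interval -0.56 to 1.05, limma adjusted p = 0.998) that changed sign under 4 alternatives. Serping1, the C1 inhibitor, was at 5.76 and 6.93 in NO_AG and 9.22 and 12.7 in AG. Its groups did not overlap, as was so for 32.3% of all genes in the class, and the log2 difference of 0.78 did not pass the test (limma adjusted p = 0.743). Of the 3 genes tested, 1 was called higher, beside 0.327% of the 3977 genes tested, 0.302% higher. In AG_CPI, with too few cells for a test, C3 was at 3.08 and 18.5, C4b at 1.12 and 15.4 and Serping1 at 8.13 and 25.7.

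Nearly all C3 and C4b of the class came from 1 cluster, led by Col3a1, Clec3b and Col1a2 and also marked by Pi16, Mfap5 and Dpt, genes known from fibroblasts of fascia and adventitia. It held 38 of 205 fibroblast-like cells (18.5%), 98.5% of C3 UMIs (319 of 324), 98.2% of C4b UMIs (107 of 109) and 67.5% of Serping1 UMIs (455 of 674). Levels in it over all its cells were 23.6 for C3, 7.59 for C4b and 31.5 for Serping1. The other 5 fibroblast-like clusters had Serping1 levels of 2.45 to 4.07, so of C3, C4b and Serping1 only the last was spread across the class.

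Within the Clec3b cluster, C4b was at 1.54 and 4.34 in NO_AG, 8.56 and 13.2 in AG, with 8.97 and 25.7 in AG_CPI. The lowest 2 mice were again NO_AG, but the cluster had 13, 5, 11, 5, 1 and 3 cells in the 6 mice and was not tested. C3 in it was at 24.6 and 18.4 in NO_AG, 27.8 and 12.7 in AG, with 24.7 and 30.8 in AG_CPI, with the groups overlapping. The cluster's share of fibroblast-like cells was 18.3% and 11.1% in NO_AG, 21.6% and 20% in AG, with 12.5% and 60% in AG_CPI. Outside it, all 6 mice together had 5 C3 UMIs, all in NO_AG_2 and 4 of them from 1 cell, and 2 C4b UMIs, both in NO_AG. Macrophage markers in fibroblast-like cells summed to 2.56 and 1.57 in NO_AG and 2.19 and 3.75 in AG, with Csf1r, Adgre1 and Fcgr1 at 0 in all 4 mice.

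**Figure D3:**
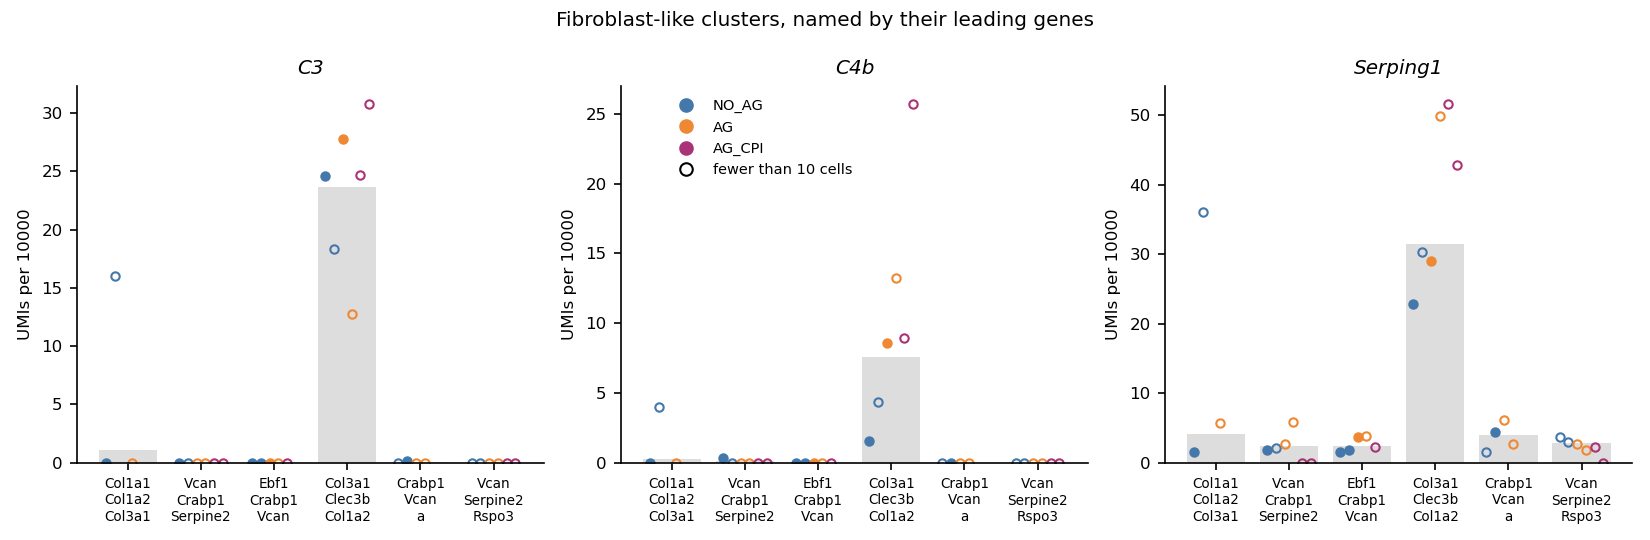
Level of C3, C4b and Serping1 (y axis, UMIs per 10000) in 6 fibroblast-like clusters named by their leading genes (x axis); bars give the mean over all cells of a cluster and points 1 mouse each, hollow below 10 cells. C3 and C4b stand up in the Col3a1, Clec3b and Col1a2 cluster, at 23.6 and 7.59, while Serping1 is also present in the others.

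Endothelial-like cells expressed Serping1 at a level like that of the fibroblast-like class. It was at 7.46 and 9.64 in NO_AG, 9.85 and 7.60 in AG, with 14.5 and 13.7 in AG_CPI. AG lay within the spread of NO_AG or just above it, and the AG_CPI values, above the other 4, came from 5 and 4 cells. With 4 to 36 cells per mouse and fewer than 10 in AG_1 and both AG_CPI mice, the class was not tested.

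Cfb was low but present in endothelial-like cells of all 6 mice, at 0.269 and 0.235 in NO_AG, 0.402 and 0.807 in AG, with 0.929 and 1.37 in AG_CPI. These levels rest on 1 to 4 UMIs per mouse. C3 was at 0.396 and 1.05 in NO_AG and 0.767 in AG_2 and had no UMI in the other 3 mice. C1q was represented by a single C1qa UMI, in AG_1. Keratinocyte markers in these cells summed to 38.3 in NO_AG_2 against 1.11 to 4.85 in the other mice, and their part in the levels was not tested.

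In keratinocyte-like cells, the epithelium of epidermis and hair follicle, Serping1 rose in AG from a very low level. It was at 0.0405 and 0.0265 in NO_AG (78 and 50 UMIs), 0.238 and 0.287 in AG (228 and 274 UMIs) and 0.111 and 0.0752 in AG_CPI (11 and 17 UMIs). AG lay above both other groups, and AG_CPI lay between. AG and NO_AG did not overlap for 42.4% of all genes in the class. The log2 difference, AG against NO_AG, was 1.47 (SE 0.18, limma adjusted p = 0.0378), and with the added 0.1 it understates a change at this level. Serping1 reached the minimum mean of 0.1 in 2 mice through the AG mice, while both NO_AG mice were below it, so the gene entered the test through the group where it was high. AG_CPI against NO_AG gave 0.55 (limma adjusted p = 0.305) and AG_CPI against AG -0.92 (limma adjusted p = 0.528). Without AG_CPI replicate 1, AG_CPI against NO_AG gave 0.40 (limma adjusted p = 0.407) and AG_CPI against AG -1.08 (limma adjusted p = 0.232).

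Of the 4 genes tested in the class in AG against NO_AG, Serping1 alone was called, beside 0.360% of the 8338 genes tested, 0.348% higher. None of the 4 was called in AG_CPI against NO_AG (0.12% of all genes) or in AG_CPI against AG (0%, where 599 genes had an unadjusted p below 0.05). The Serping1 call was lost without the filter on low values (limma adjusted p = 0.224), after thinning (0.0782), with clusters weighted equally (0.129) and after subtracting the level in T-like cells (0.0892). It was also lost without NO_AG replicate 1 (0.202), NO_AG replicate 2 (0.350), AG replicate 1 (0.0719) or AG replicate 2 (0.261), with the difference between 1.39 and 1.56 in these fits.

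Serping1 was higher in both AG mice than in both NO_AG mice in each of the 4 keratinocyte-like clusters that had 10 cells in all 6 mice. The same held in single clusters for 14.0% to 19.8% of the 8338 genes, and in all 4 for 1.92% of them. In the cluster led by Gnmt, Tagln and Sfrp1 it was at 0.0576 and 0.0473 in NO_AG and 0.323 and 0.825 in AG. In the Defb6, Cst6 and Sprr4 cluster it went from 0.00638 and 0.0118 to 0.159 and 0.227, and in the differentiating Krt10, Krt77 and Krt1 cluster from 0.0656 and 0.0457 to 0.105 and 0.380. The Fst, Aldh3a1 and Sostdc1 cluster had the narrowest gap, 0.0579 and 0.0468 against 0.113 and 0.127. The AG_CPI mice did not keep their place between the groups in these clusters: they were at 0.364 and 0.251 in the Gnmt cluster but at 0 and 0.0940 in the Defb6 cluster, from 15 to 44 cells. T-like cells had at most 0.0210 in any mouse. The 11 fibroblast markers, from a class rich in Serping1, summed to 2.18 and 4.17 in keratinocyte-like cells of NO_AG and 3.73 and 3.48 in AG, without a common direction.

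C1q in keratinocyte-like cells had a high mean in 1 of the 2 AG mice and in both AG_CPI mice, carried by some of their clusters. The sum of the 3 chains was 0.0214 and 0.0551 in NO_AG, 0.0642 and 2.30 in AG, with 1.09 and 1.5 in AG_CPI. AG_2 stood far from AG_1 and above both AG_CPI mice. In AG against NO_AG the log2 differences were 1.5 for C1qa, 1.74 for C1qb and 1.31 for C1qc (limma adjusted p = 0.866, 0.825 and 0.859). In AG_CPI against NO_AG they were 2.44, 2.43 and 1.75 (limma adjusted p = 0.297, 0.327 and 0.38), and without AG_CPI replicate 1 they were 2.77, 2.51 and 1.72 (limma adjusted p = 0.393, 0.442 and 0.494). Both AG_CPI mice lay above both NO_AG mice, in a comparison where groups did not overlap for 50.8% of all genes in the class. With only those 2 groups in the fit all 3 chains passed (limma adjusted p = 0.0479, 0.0206 and 0.0353), beside 41 of the 8338 genes (0.492%). All 3 chains were far below 0.1 in the NO_AG mice and so entered the tests through the mice where they were high.

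In T-like cells the sum was 0.0526 and 0.0263 in NO_AG, 0.11 and 0.217 in AG, with 0.107 and 0.184 in AG_CPI (the highest, as in keratinocyte-like cells, was AG_2). After thinning to 1500 UMIs, 21.4% of AG_2 and 15.9% of AG_CPI_2 keratinocyte-like cells had a C1q UMI (28.2% and 20.1% before thinning), against 2.82% and 2.11% of T-like cells. In AG_CPI_1 the share was lower, 4.10% (5.64% before thinning) against 1.64% of T-like cells. AG_1, with 0.667%, did not exceed its T-like cells, with 0.811%. In AG_2 the chains made up 32.3%, 43.9% and 23.8% of keratinocyte C1q UMIs, near the 31.6%, 45.7% and 22.8% in its macrophage-like cells.

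Within AG_2, C1q was uneven over the keratinocyte-like clusters, exceeding 1 per 10000 in 6 of 19. In the 4 clusters that all mice shared, its C1q sum was only 0.0302 to 0.308. The level of 1 was also exceeded in 1 of 7 clusters in AG_CPI_1, 3 of 11 in AG_CPI_2 and no cluster of the other 3 mice. In AG_CPI_1 that cluster was 15 of the 195 keratinocyte-like cells, with a C1q sum of 14.0, and its other clusters with at least 10 cells were at 0.0530 or below. Macrophage markers in keratinocyte-like cells summed to 1.42 and 1.36 in NO_AG, 1.93 and 3.26 in AG, with 3.54 and 2.14 in AG_CPI, with 0 to 5 of the 16 at 0. Macrophage-like cells, the class with the most C1q, were 4.71% of the AG_1 library and 12.4% of AG_2. The part of macrophage RNA in keratinocyte C1q was not tested. C3 was at 0.0666 or below, C4b at 0.0261 or below and Cfb at 0.0204 or below in keratinocyte-like cells of every mouse.

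**Figure D4:**
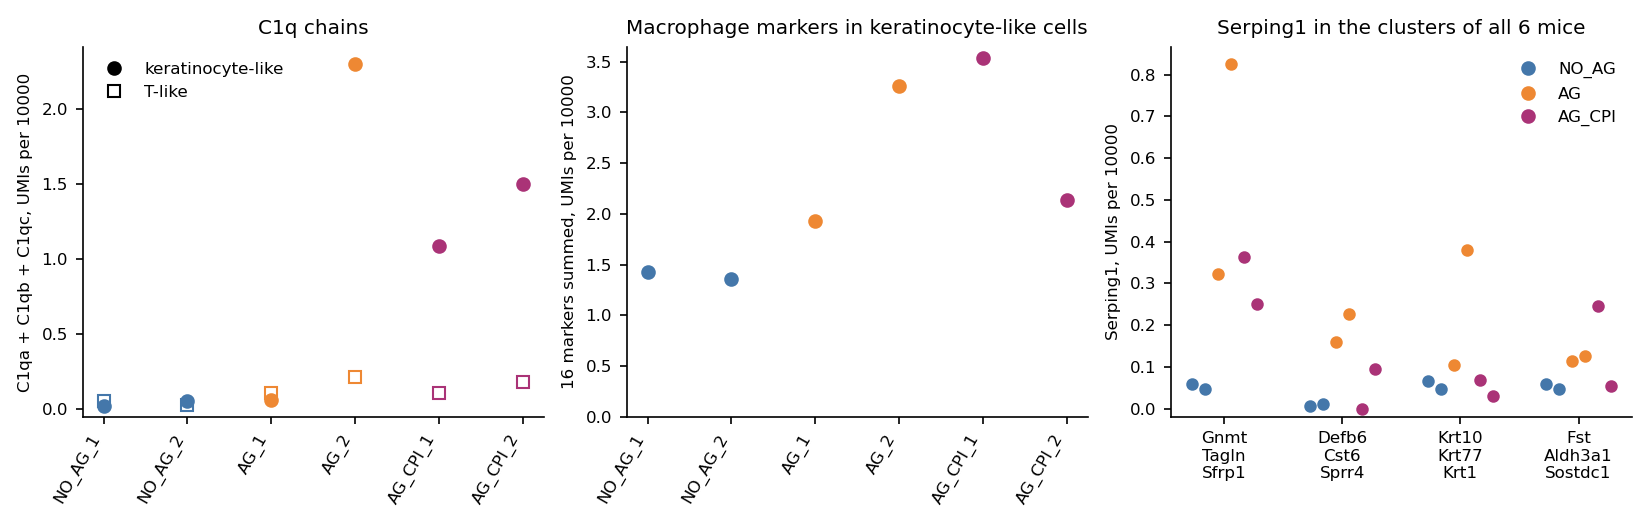
Left, summed C1q chains in keratinocyte-like (circles) and T-like cells (squares); middle, 16 macrophage markers summed in keratinocyte-like cells; right, Serping1 in the 4 keratinocyte-like clusters with 10 cells in all mice; all y axes in UMIs per 10000, 1 point per mouse. AG_2 has the highest C1q sum (2.30), and both AG mice lie above both NO_AG mice for Serping1 in all 4 clusters.

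Other complement genes came from a list of 54, of which 41 had a column, and list medians below include the chosen genes. In macrophage-like cells 15 were tested. In AG against NO_AG, 2 were higher (C3 and Itgb2) and 2 lower (C4b among them), beside 12.6% higher and 1.38% lower of all genes. The median log2 difference was 0.77, beside 0.42 for all genes. In AG_CPI against NO_AG, 3 were higher (C3, Cfb and Itgb2) and 2 lower (C4b among them), beside 13.5% and 1.47% of all genes. The median there was 1.01, beside 0.44. None passed in AG_CPI against AG, where 0% of all genes did.

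Itgb2, the shared beta subunit of complement receptors 3 and 4, was at 0.971 and 0.683 in NO_AG, 2.63 and 2.01 in AG, with 3.55 and 1.93 in AG_CPI. Itgb2 had 6 and 7 UMIs in the NO_AG mice, both fewer than the minimum count that the test required. It thus entered the test through the antigen-on mice, where it was high. Its log2 difference was 1.78 in AG against NO_AG (limma adjusted p = 0.0255) and 1.97 in AG_CPI against NO_AG (limma adjusted p = 0.0191). Neither call held throughout: no gene of the class was called in AG against NO_AG with only the 2 groups compared or without either AG mouse, or in AG_CPI against NO_AG without AG_CPI replicate 1 or AG_CPI replicate 2, which ends the list's calls there too. The Mmp12 cluster held 99.2% of Itgb2 UMIs.

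The receptors of the anaphylatoxins, the small fragments of C3 and C5, were found in macrophage-like cells. C3ar1 ranged from 2.40 to 3.09 over the 6 mice and C5ar1 from 0.853 to 1.25, and neither passed a test. Cfp, properdin, which stabilises the alternative convertase, ranged from 1.60 to 3.07. Itgam and Itgax, the alpha subunits of complement receptors 3 and 4, had means over the 6 mice of 1.19 and 2.26. Itgax was at 2.00 and 0.391 in NO_AG, 3.26 and 2.48 in AG, with 2.99 and 2.44 in AG_CPI, and its log2 difference of 1.92 in AG against NO_AG did not pass (limma adjusted p = 0.076).

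In fibroblast-like cells 8 list genes were tested, and C4b alone passed, beside 0.327% of all genes. The median was 0.55, beside -0.03 for all genes. The proteases of C1 had their highest mean over the 6 mice in fibroblast-like cells among the 4 classes, at 2.10 for C1s1 and 1.60 for C1ra. Endothelial-like cells had C1ra at 0.391 to 1.01, overlapping the fibroblast-like levels. C1s1 was at 1.52 and 1.47 in NO_AG and 1.98 and 3.11 in AG, and C1ra at 0.945 and 0.844 in NO_AG and 1.7 and 1.36 in AG, neither passing the test. The Clec3b cluster held 73.9% of C1s1 UMIs and 67.0% of C1ra UMIs.

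In keratinocyte-like cells 9 list genes were tested, with Serping1 alone called in AG against NO_AG, beside 0.360% of all genes. The 3 C1q chains, C1s1 and Serping1 had differences above 0. Cd59a, Cd55, Clu and Cr1l were below 0, at -0.79, -0.69, -0.38 and -0.04 (limma adjusted p = 0.859, 0.428, 0.911 and 0.992). The filter bears on this split. The C1q chains, C1s1 and Serping1 were below the minimum mean of 0.1 in both NO_AG mice. Cd55 reached that minimum only in NO_AG, at 0.187 and 0.146. C1s1, a protease that the C1 inhibitor blocks, was at 0.0255 and 0.0433 in NO_AG, 0.271 and 0.194 in AG, with 0.295 and 0.0890 in AG_CPI. Its log2 difference of 1.34 did not pass (limma adjusted p = 0.393). Endothelial-like cells were the class with the highest mean over the 6 mice of the regulators Clu (6.00), Cd59a (1.13) and Cd55 (1.10) and of Cd93 (2.11), a receptor once described as binding C1q. Clusterin, the product of Clu, and CD59 block the terminal pathway, and CD55 speeds the decay of convertases.

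**Figure D5:**
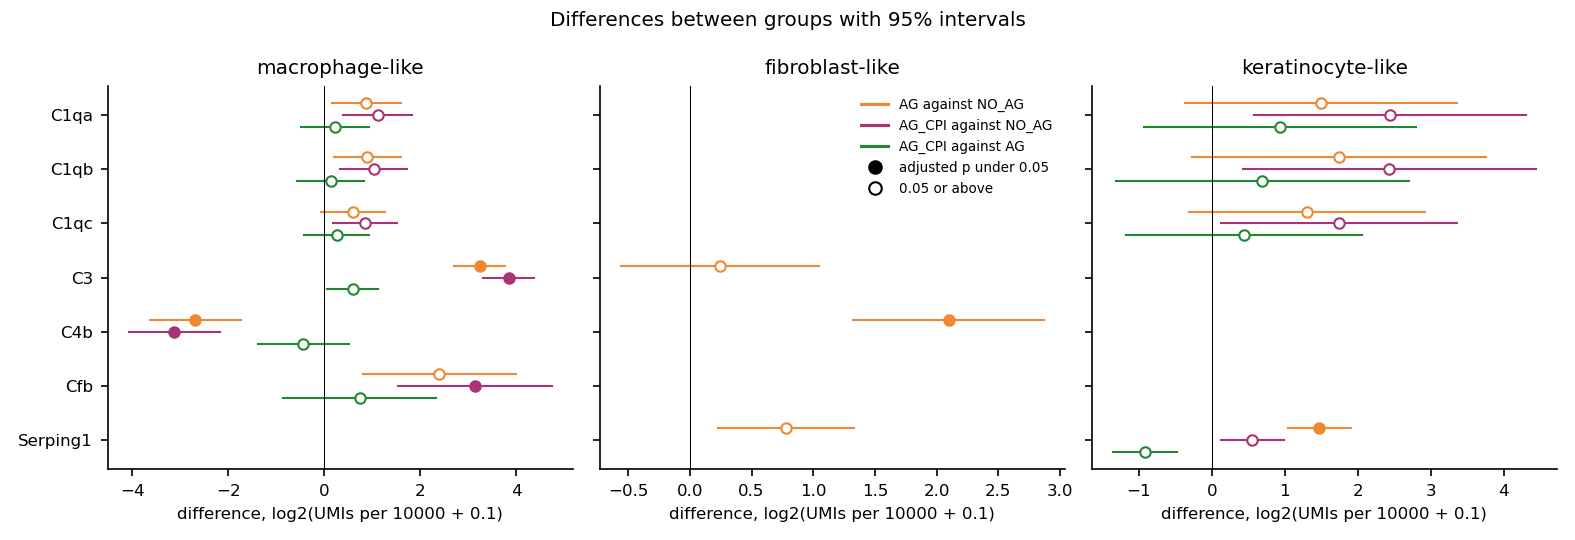
Log2 difference between groups (x axis, on log2 of UMIs per 10000 plus 0.1) for each tested gene (y axis) in 3 cell classes, with 95% intervals; filled points have an adjusted p under 0.05. C3 lies at 3.25 and 3.85 and C4b at -2.69 and -3.13 against NO_AG in macrophage-like cells, while C4b is at 2.10 in fibroblast-like cells.

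Across all named classes, the genes whose levels were most like those of the members were found by Pearson correlation of log2(mean + 0.1) over 44 pairs of a class and a mouse, from 10 classes. The pairs share libraries and depth, so the values are descriptive. The C1q sum was most like Fcgr2b (0.95), an inhibitory Fc receptor, then Clec4a1, Cd300c2, Ms4a6d and Aif1 (0.926 to 0.920). C3 was most like Tmem119 (0.884), followed by Rrbp1, Dram1, Ecm1 and Anxa3 (0.823 to 0.770). C4b had Etv1 (0.840), Scamp5, Pla2g15, Zeb2 and Hmox1 (0.748). Cfb was most like Il18bp (0.846), Itga5, Apobec1, Trpm2 and Nos2 (0.798), the last the inducible nitric oxide synthase. Serping1 was most like the matrix genes Fbn1 (0.948) and Adamts5 (0.947), then Fndc1, Rhoj and Adgra2 (0.935).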

How the data were processed

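Skin cell suspensions of 6 mice were sequenced with 10x Genomics 5′ chemistry, per the labels' protocols, and processed with Cell Ranger 3.1 and mm10, per the submitters' processing notes. The values the authors deposited are log10(1 + UMIs per 10000 UMIs of a cell): under that base 100% of nonzero values gave whole UMIs, against 65.7% to 68.3% under the natural log. The filters the authors applied to cells are not given in the sources used here.

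Cells needed 200 genes and at most 20% mitochondrial UMIs (81 failed), and 699 likely doublets were removed with Scrublet. Clustering used scanpy 1.11.5 and leidenalg 0.10.2 (2000 variable genes without complement genes, 30 components, 15 neighbours, resolution 1, no integration). Clusters needed 3 markers of a class among their top 50 genes, and the stromal cells were clustered again; this naming rule was settled after the cluster genes were seen, so class names are rebuilt, not the authors'.

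Linear values were averaged per mouse and class (at least 10 cells), scaled by trimmed mean of M values, and tested with limma 3.58.1 in R 4.3.3 on log2(mean + 0.1) in 1 fit of all groups with at least 10 cells per mouse. Genes needed 10 UMIs and a mean of 0.1 in 2 libraries. The fit was tested on simulated data. Shares have Wilson or exact 95% intervals in the tables, and intervals and floors of 3 UMIs cover counting error only. Depth per library is given with the data. Named genes are the chosen genes, complement list genes that passed a test or reached a mean of 1 in a class, and the 5 most alike genes; 1 list gene is not reported here. The genes and lists were chosen with earlier results of these data known. Alternatives covered the pseudocount, filters, scaling, doublets, clustering, depth, summing, the groups in the fit, the replicate block and leaving out each mouse. Alternatives chosen after seeing the data were each macrophage cluster alone, clusters weighted equally and subtraction of the T-like level. Sequences are from RefSeq.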

Additional observations from a re-analysis of the deposited data

Results flagged for a closer look

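C4b differed in opposite directions in 2 classes. In AG against NO_AG its log2 difference was -2.69 in macrophage-like cells and 2.10 in fibroblast-like cells. Both AG mice lay below both NO_AG mice in the first class and above them in the second. Groups did not overlap for 53.3% and 32.3% of all genes in these classes. Within the Retnla cluster of macrophage-like cells, the AG mice lay above the NO_AG mice for C4b. That cluster held 56.5% and 76.5% of macrophage-like cells in NO_AG, and 6.29% and 2.53% in AG. The difference between the classes was not tested.

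Dendritic or Langerhans-like cells, which the comparisons did not use, had C1q above the level of the NO_AG mice. C1qa was at 3.12 per 10000 in AG_1 and 16.3 in AG_2, against 1.74 and 1.96 in NO_AG. C1qb was at 0.917 and 10.4, against 0.140 and 0.330, and C1qc at 0.265 and 6.24, against 0.101 and 0.211. The AG values come from 33 and 28 cells, and no AG_CPI mouse had such cells.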

How the results depend on the processing

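Of the single-gene log2 differences recomputed under the alternatives, 449 kept direction and side of the threshold, 46 newly passed it, 27 no longer passed and 16 reversed. Members called in macrophage-like cells, AG against NO_AG, were 2 in the main fit (14.0% of all genes called). They went to 5 after thinning (19.4%), 4 with summed UMIs (13.6%) and 5 after subtracting the T-like level (31.4%). They were 0 with only the 2 groups compared (0%) and 0 in the Retnla cluster alone (0%), where 466 genes were tested. Leaving out a mouse moved both the count and the share of all genes called, up or down with the mouse. In AG_CPI against NO_AG the members called were 3 (15% of all genes). They went to 5 with a pseudocount of 0.5 (13.9%), 5 at Leiden resolution 2 (24.0%) and 6 after thinning (20.02%). They were 6 with summed UMIs (13.7%) and 6 after subtracting the T-like level (35.4%). Leaving out a mouse again moved both count and share, up or down with the mouse. In fibroblast-like cells the 1 call (0.327% of all genes) went to 0 with 500 genes and 10% mitochondrial UMIs (0.176%). It also went to 0 after thinning (0.647%) and with summed UMIs (0.151%), and it did not hold with every mouse left out. In keratinocyte-like cells the 1 call in AG against NO_AG (0.360% of all genes) went to 0 without the low-value filter (0%). It also went to 0 after thinning (0.34%), with clusters weighted equally (0.454%) and after subtracting the T-like level (1.12%). Leaving out a mouse moved both count and share, up or down with the mouse. AG_CPI against NO_AG in this class went from 0 (0.12%) to 3 (0.492%) with only those 2 groups in the fit. Over all genes, calls in macrophage-like cells ran from 0 to 3501 around 932 (AG) and from 0 to 3469 around 997 (AG_CPI), both highest without NO_AG replicate 1. AG_CPI against AG ran from 0 to 67, the latter in the Mmp12 cluster alone. Fibroblast-like calls ran from 6 to 56 around 13, and keratinocyte-like calls from 0 to 63 around 30 in AG and 0 to 57 around 10 in AG_CPI against NO_AG, whose split of 8 higher and 2 lower became 9 and 4 with the deposited scaling. Where 1 mouse is left out, the lone mouse of a group is assumed to vary like the others.

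Reversed differences in macrophage-like cells were C1qa at -0.037 and C4b at 0.36 in the Retnla cluster alone (AG against NO_AG). For AG_CPI against AG they were C4b at 0.20 in the Mmp12 cluster alone and C1qa at -0.21, C1qb at -0.18 and C1qc at -0.17 without AG replicate 2 (0.68, 0.44 and 0.68 without AG replicate 1). Fibroblast-like C3 reversed to -0.29 with the stricter cell filter, -0.20 after thinning, -0.22 without NO_AG replicate 2 and -0.41 without AG replicate 1, and reached 0.90 without AG replicate 2. In keratinocyte-like cells, AG_CPI against AG, C1qa, C1qb and C1qc were at -0.0090, -0.29 and -0.012 with doublets kept and at -0.45, -0.85 and -0.79 without AG replicate 1, and at 2.33, 2.23 and 1.67 without AG replicate 2. The cause was not tested. Depth limits C3 and Cfb in NO_AG macrophage-like cells, which rest on 4 and 3 UMIs.

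With the replicate number as a block, members called were 2, 3 and 0 in macrophage-like cells (AG against NO_AG, AG_CPI against NO_AG, AG_CPI against AG), 1 in fibroblast-like cells and 1, 0 and 0 in keratinocyte-like cells, as without it. Genes called over the whole table were 588, 703 and 0, then 22, then 51, 57 and 2. Same-numbered mice had correlated deviations of -0.06 to -0.01 in macrophage-like, -0.04 in fibroblast-like and 0.14 to 0.22 in keratinocyte-like cells. With 2 numbers and no label that ties same-numbered mice, the numbers were not taken to pair the mice; in keratinocyte-like cells replicate 2 had the higher C1q sum in all 3 groups.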

Other observations

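Dendritic or Langerhans-like cells differed from macrophage-like cells in the make-up of C1q. C1qa made up 86.3% and 80.2% of their C1q UMIs in NO_AG (197 and 172 UMIs) and 74.5% in AG_1 (106 UMIs), against 28.4% to 34.2% in macrophage-like cells of the 6 mice. In AG_2 the share was 50.3% (95% Wilson interval 46.5% to 54.1%, 672 UMIs). C3, C4b and Cfb had 2 UMIs in all in these cells, all of them C3 in NO_AG_1. C1qa had the highest level of the members in these cells, and in AG_2 C1qb and C1qc were also at 10.4 and 6.24 per 10000.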
